A study of Mus musculus with 2 samples.

Results

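The genes described here are the collagen chains of mouse, taken as every gene symbol of the form Col, a number, a, and a number. There were 44 such genes among the 31053 genes counted. Their RNA was measured in single cells from a brain tumour of C57BL/6 mice that the labels call mIDH1, for mutant isocitrate dehydrogenase 1, at the symptomatic stage. All cells belong to 1 group, measured as 2 droplet libraries (replicates 1 and 2), and no wild-type tumour is part of the data used here. The labels name no promoter, further allele or animal for either library and do not say that they came from separate animals, so every p-value below measures only how differences between cell classes varied from library to library, which may be technical.

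Collagens are proteins of 3 chains wound into a triple helix, and each chain has its own gene. Fibrillar chains (types I, II, III, V, XI, XXIV and XXVII) form the fibres of connective tissue, and type IV chains form the sheet of basement membranes, which in brain lie around blood vessels. Type VI chains form beaded filaments beside those membranes, type VII forms the anchoring fibrils known from skin, and types XV and XVIII (multiplexins) sit in or beside basement membranes and carry sugar chains. Healthy brain tissue holds little fibrillar collagen away from its vessels and coverings. Pdgfrb encodes platelet-derived growth factor receptor beta, which is known from the mural cells of vessels (pericytes and smooth muscle) and from fibroblasts.

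Cells were kept with at least 200 detected genes and at most 15% mitochondrial unique molecular identifiers (UMIs, 1 for each RNA molecule captured). Tumour cells were those with at least 1000 CPM (counts per 1000000) of Nras, and they were split into cells with 0 Pdgfrb UMIs (Pdgfrb-zero) and with 1 or more (Pdgfrb-positive). Immune classes were set by C1qa (at least 5 UMIs, macrophage/microglia), Ly6c2 with Lyz2 (monocyte), Mcpt8 (basophil) and Cd3e (T cell), and cells meeting the rules of more than 1 class were left out of all classes. Replicate 1 gave 676 Pdgfrb-zero and 321 Pdgfrb-positive tumour cells, with medians of 40854 and 44224 UMIs per cell. Replicate 2 gave 537 and 304 tumour cells, with medians of 45146 and 49778.5. Macrophage/microglia numbered 237 and 217 cells with medians of 8105 and 9621 UMIs, and monocytes (34 and 38), basophils (76 and 66) and T cells (28 and 31) were fewer. Monocytes had medians of 8343 and 10014 UMIs, whereas basophils (3152.5 and 3483) and T cells (3912 and 5758) were shallower than macrophage/microglia. Levels are CPM, the UMIs of a gene over all UMIs of a class in a library. A UMI counts a captured molecule and is not divided by gene length, and differences in capture between genes were not measured, so shares between chains are shares of UMIs.

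Both tumour classes held Sox2 (15.5 to 19.7 CPM over the classes and libraries), a gene of neural stem cells and gliomas, and the filament gene Nes (107 to 118 CPM). The other 6 of 8 listed glioma markers were low, between 0 and 1.89 CPM, and Olig1 and Olig2 were at 0 in Pdgfrb-zero cells, so the label of a brain tumour cell rests here on the Nras rule, Sox2 and Nes. Among kept cells, 9 barcodes occurred in both libraries with similar UMI totals in each. These barcodes were shallow (medians of 683 and 757 UMIs). They held 46 of the 164 Col1a1 UMIs and 85 of the 152 Col1a2 UMIs of all kept cells, and 35 of the 806 Col3a1 UMIs, but none of Col18a1, Col7a1 or Col6a2. Most had no class, and in each library 1 of them, not the same one, met the Pdgfrb-zero tumour rule. Some values for Col1a1 and Col1a2 are therefore also given without them.

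The stretches before the start sites of 5 chains, and the short stretch in which a pair of chains begin, are printed because these genes carry the results: Col18a1 and Col7a1 for tumour cells in general, the Col4a1 and Col4a2 pair for basement membrane, and Col3a1, Col5a1 and Col6a2 for the Pdgfrb-positive cells. They come from RefSeq promoters of GRCm38.p6 and are written 5′ to 3′ on the gene's strand: Col18a1 at chr10:77166549-77166780 (minus strand), Col7a1 at chr9:108953336-108953585 (plus), Col3a1 at chr1:45311288-45311537 (plus), Col5a1 at chr2:27886175-27886424 (plus) and Col6a2 at chr10:76623631-76623880 (minus). The Col4a1 and Col4a2 stretch at chr8:11312805-11312826, on the plus strand, is the 22 bases that lie in both genes. Col18a1 and Col6a2 each have a second RefSeq start, whose stretch is not shown. Capitals mark the motif TATAAA, the motif GGGCGG and the motif CCAAT on either strand.
Col18a1: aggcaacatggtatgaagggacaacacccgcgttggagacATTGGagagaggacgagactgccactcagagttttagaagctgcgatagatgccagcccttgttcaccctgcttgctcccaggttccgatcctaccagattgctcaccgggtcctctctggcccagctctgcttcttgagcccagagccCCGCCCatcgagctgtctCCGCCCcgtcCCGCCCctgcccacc
Col7a1: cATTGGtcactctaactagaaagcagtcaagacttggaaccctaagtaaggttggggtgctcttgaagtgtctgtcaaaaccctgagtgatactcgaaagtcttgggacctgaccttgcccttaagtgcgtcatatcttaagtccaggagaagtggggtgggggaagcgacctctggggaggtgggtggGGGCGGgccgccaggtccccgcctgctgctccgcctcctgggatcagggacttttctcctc
Col4a1 and Col4a2: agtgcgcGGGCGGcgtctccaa
Col3a1: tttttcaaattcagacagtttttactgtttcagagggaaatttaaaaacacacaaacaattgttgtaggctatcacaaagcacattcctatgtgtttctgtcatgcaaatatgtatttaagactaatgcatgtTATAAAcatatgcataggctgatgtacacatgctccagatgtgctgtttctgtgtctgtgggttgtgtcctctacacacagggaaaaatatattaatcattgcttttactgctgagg
Col5a1: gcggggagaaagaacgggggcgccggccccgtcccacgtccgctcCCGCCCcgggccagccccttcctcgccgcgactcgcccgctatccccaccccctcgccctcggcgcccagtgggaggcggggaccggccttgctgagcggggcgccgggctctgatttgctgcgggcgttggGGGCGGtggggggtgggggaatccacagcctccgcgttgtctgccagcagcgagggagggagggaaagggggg
Col6a2: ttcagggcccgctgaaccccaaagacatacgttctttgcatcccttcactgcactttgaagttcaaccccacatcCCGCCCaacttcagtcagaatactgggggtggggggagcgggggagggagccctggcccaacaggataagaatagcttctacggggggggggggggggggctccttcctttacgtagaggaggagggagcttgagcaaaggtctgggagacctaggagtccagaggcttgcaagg

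The stretches differed in base composition. The Col3a1 stretch had a GC content of 35.2% and was the only one of those printed with TATAAA, whereas the Col5a1 stretch had a GC content of 76.4% and 2 matches to GGGCGG. Over the 250 bases before each start site, searched on both strands, GGGCGG was found in 22 of 38 collagen promoters (35 genes) and in 32.7% of all 32851 promoters. TATAAA was found in 5 of 38 against 12.4% of all, and CCAAT in 13 of 38 against 33.8%. The motifs were searched separately, and a match is a description of letters, not of a bound site. In GENCODE M21 (GRCm38), Col4a1 (chr8:11198423-11312826, minus strand) and Col4a2 (chr8:11312805-11449287, plus strand) lay head to head. Col6a1 (chr10:76708792-76726168) and Col6a2 (chr10:76595762-76623630) lay on the same strand with 85161 bases between them. Col3a1 (chr1:45311538-45349706) and Col5a2 (chr1:45374321-45503282) lay tail to tail.

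Of the 44 chains, 3 had no UMI in any kept cell, 6 had none in the tumour classes, 12 had 1 to 10 tumour UMIs and 26 had more than 10. All collagen chains together made up 266.7 ± 5.30 CPM in Pdgfrb-zero tumour cells and 362.3 ± 10.0 CPM in Pdgfrb-positive tumour cells (SD, n = 2 libraries). Macrophage/microglia stood at 41.1 ± 7.66 CPM. A test across all genes was made on 23 chains with at least 10 UMIs in each library, and the other 21 were too low for it. In Pdgfrb-zero tumour cells 4 chains reached 10 CPM in both libraries, and 10 reached 1 CPM. Among Pdgfrb-positive tumour cells 14 chains reached 1 CPM in both libraries.

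Col18a1 encodes the chain of collagen XVIII, whose end fragment is endostatin. It stood at 96.8 and 98.6 CPM in Pdgfrb-zero tumour cells of replicates 1 and 2 and at 127.7 and 140.7 CPM in Pdgfrb-positive cells. It made up 36.6% ± 1.21 of the collagen UMIs of Pdgfrb-zero cells and 37.0% ± 1.52 of those of Pdgfrb-positive cells. Col7a1, the single chain of collagen VII, stood at 86.9 and 80.0 CPM in Pdgfrb-zero cells and at 84.4 and 79.8 CPM in Pdgfrb-positive cells. The ranges of the classes overlapped for Col7a1 and did not for Col18a1.

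The type IV chains Col4a1 and Col4a2, which join in 1 helix as the common basement membrane network, had nearly equal levels. Col4a1 stood at 29.6 and 27.5 CPM in Pdgfrb-zero cells and at 33.8 and 39.8 CPM in Pdgfrb-positive cells. Col4a2 stood at 28.4 and 28.1 CPM, and at 33.7 and 35.2 CPM. The remaining type IV chains were low. Col4a5 stood at 0.484 and 0.606 CPM in Pdgfrb-zero cells and at 2.65 and 2.05 CPM in Pdgfrb-positive cells. Col4a4 stood at 0.709 and 1.02 CPM in Pdgfrb-zero cells and at 0.824 and 0.630 CPM in Pdgfrb-positive cells, Col4a3 had 5 UMIs in both tumour classes together and Col4a6 had 1.

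Lower chains of the Pdgfrb-zero cells came from several groups. Col16a1, a fibril-associated chain, stood at 6.51 and 6.10 CPM, and at 8.30 and 9.13 CPM in Pdgfrb-positive cells. Col5a1, a type V chain that helps to start fibrils, stood at 5.54 and 6.10 CPM. Col3a1, the chain of the thin fibres of soft tissue, stood at 2.74 and 2.61 CPM, and Col6a1, a chain of type VI filaments, at 2.77 and 2.58 CPM. Col8a1, a network chain, stood at 2.93 and 1.78 CPM, and Col6a3 at 1.77 and 1.93 CPM. The main chains of scar and tendon, Col1a1 and Col1a2, were near the limit of detection in these cells, at 0.193 and 0.417 CPM and at 0.0322 and 0.265 CPM, against a limit of 0.0522 CPM that 3 UMIs in both libraries together give.

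**Figure D1:**
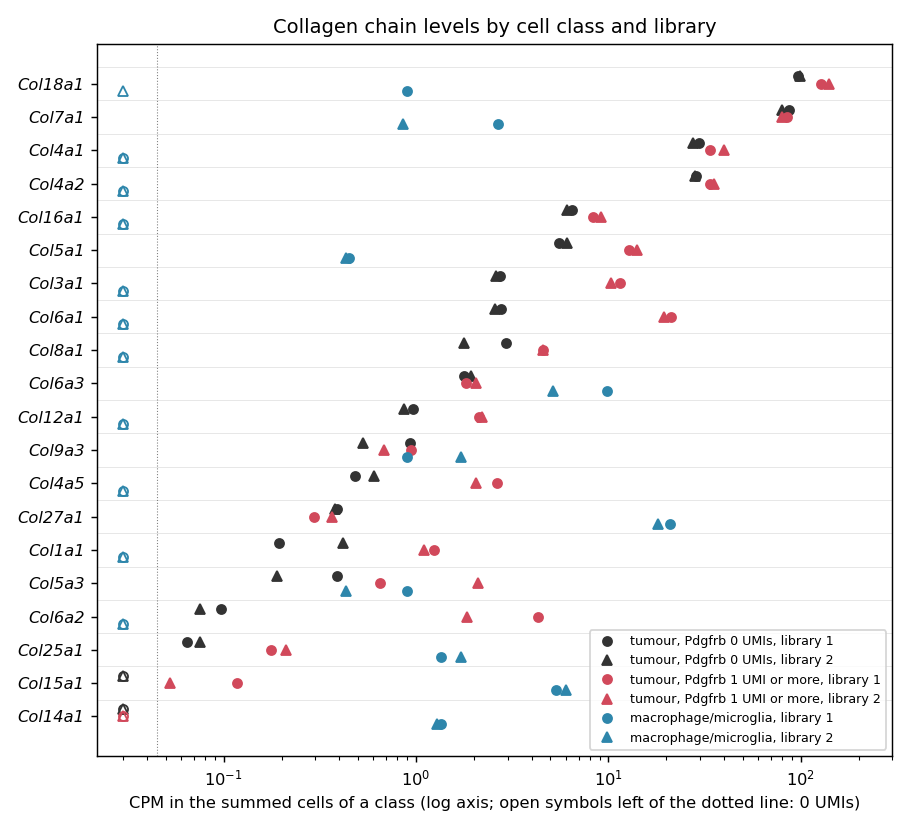
Collagen chain levels (CPM, log axis) in the summed cells of a class, for chains with a mean of at least 1 CPM in either tumour class or in macrophage/microglia. Circles are library 1 and triangles library 2, and open symbols left of the dotted line are classes with 0 UMIs. Col18a1, Col7a1, Col4a1 and Col4a2 lie between 27.5 and 140.7 CPM in tumour cells, while Col27a1 lies highest in macrophage/microglia.

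Which chains marked the tumour cells with Pdgfrb was asked by setting Pdgfrb-positive against Pdgfrb-zero tumour cells. The chains that were higher were fibrillar and type VI chains: Col6a1, Col6a2, Col3a1, Col5a1, Col5a3 and Col1a1, together with the type IV chain Col4a5. In numbers, 7 of the 23 tested chains were higher and 0 were lower, where the share over all 13667 genes tested was 0.907% higher and 0.351% lower (edgeR quasi-likelihood test with the library as a block, Benjamini-Hochberg adjusted p under 0.05 and at least a 2-fold change). At an unadjusted p under 0.05 no tested chain was lower either. The filter on low counts summed UMIs over all classes. Col6a2, Col1a1 and Col5a3 reached 10 UMIs in at least 1 library only through their Pdgfrb-positive cells. Col1a1 had 6 UMIs in Pdgfrb-zero and 21 in Pdgfrb-positive cells of replicate 1, and Col5a3 had 5 and 40 in replicate 2. The filter thus favoured part of the 7 calls, and the count is a description beside the share over all genes. The median log2 change was 0.00 over all genes tested. By group, 4 of 6 tested fibrillar chains, 2 of 4 type VI chains and 1 of 4 type IV chains were higher, and none of 3 fibril-associated, 2 transmembrane, 2 multiplexin, 1 network or 1 anchoring-fibril chains.

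The type VI chains separated the classes furthest. Col6a1 stood at 21.1 and 19.4 CPM in Pdgfrb-positive cells against 2.77 and 2.58 CPM, and its ratio was 7.62 in replicate 1 and 7.52 in replicate 2. The log2 change was 2.84 ± 0.15 (SE), with an adjusted p of 6.1e-21 (edgeR). Its partner chain Col6a2 stood at 4.30 and 1.84 CPM against 0.0967 and 0.0758 CPM, a log2 change of 4.87 ± 0.54 (adjusted p = 1.336e-09). That fold rests on 5 UMIs in Pdgfrb-zero cells, and the pooled ratio of 34.4 had a counting interval of 14.3 to 108. The third common type VI chain, Col6a3, stood at 1.82 and 2.05 CPM against 1.77 and 1.93 CPM, a ratio of 1.05 with an interval of 0.767 to 1.44. With Pdgfrb-positive cells taken from 3 Pdgfrb UMIs, Col6a3 was called higher too (log2 change 1.26 ± 0.39, adjusted p = 0.0211, edgeR).

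Among the fibrillar chains, Col3a1 stood at 11.5 and 10.3 CPM in Pdgfrb-positive cells, with a log2 change of 1.95 ± 0.18 (adjusted p = 2.37e-12, edgeR). A single cell of replicate 2 held 62 of the 197 Col3a1 UMIs of its class. Without the highest cell of each class the ratios were 4.85 in replicate 1 and 3.46 in replicate 2, against 4.21 and 3.96 with them. Col5a1 stood at 12.8 and 14.1 CPM and was 2.30-fold and 2.31-fold the Pdgfrb-zero level in the 2 libraries (log2 change 1.13 ± 0.14, adjusted p = 3.315e-08). Col5a3, a scarcer type V chain, stood at 0.647 and 2.10 CPM against 0.387 and 0.189 CPM. Its ratio was 1.67 in replicate 1 and 11.1 in replicate 2, so the size of its change differed widely between the libraries.

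Type I collagen was not complete in these sums. Col1a1 stood at 1.24 and 1.10 CPM in Pdgfrb-positive cells, a log2 change of 1.84 ± 0.53 (adjusted p = 0.0245, edgeR) that became 2.22 ± 0.55 (adjusted p = 0.00633) without the barcodes found in both libraries. Col1a1 lost its call with no filter on low counts (adjusted p = 0.0555) and with tumour cells taken from 500 CPM (0.278) or 2000 CPM (0.202) of Nras. Col1a2, the partner of Col1a1 in type I fibres, had 0 UMIs in Pdgfrb-positive tumour cells of both libraries, which allows up to 0.0832 CPM, and 8 in Pdgfrb-zero cells, of which 3 remained without the barcodes found in both libraries. With tumour cells taken from 500 CPM of Nras it had 39 UMIs in Pdgfrb-zero and again 0 in Pdgfrb-positive cells and was called lower (adjusted p = 3.953e-05, edgeR). That setting was not run without the barcodes found in both libraries, which held 85 of the 152 Col1a2 UMIs of all kept cells. Their part in this call was not tested.

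Chains that make up most of the tumour's collagen UMIs changed little or not beyond the error. Col18a1 had a ratio of pooled counts of 1.38 between Pdgfrb-positive and Pdgfrb-zero cells. Its fitted log2 change of 0.38 ± 0.06 (adjusted p = 6.752e-06, edgeR) passed the p threshold but not the 2-fold threshold. Col7a1 had a log2 change of -0.10 ± 0.06 (adjusted p = 0.516), and its pooled ratio of 0.979 had a counting interval of 0.935 to 1.03. Col4a1 had a log2 change of 0.29 ± 0.08 (adjusted p = 0.0168), under 2-fold, and Col4a2 one of 0.21 ± 0.08 (adjusted p = 0.124). Col8a1 stood at 4.59 and 4.57 CPM in Pdgfrb-positive cells (log2 change 0.89 ± 0.25, adjusted p = 0.0176, under 2-fold). The fibril-associated chain Col12a1 stood at 2.12 and 2.20 CPM against 0.967 and 0.871 CPM (1.15 ± 0.37, adjusted p = 0.0638). Both chains passed the p and the fold threshold when tumour cells were thinned to 10000 UMIs or when Pdgfrb-positive cells had at least 3 UMIs.

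**Figure D2:**
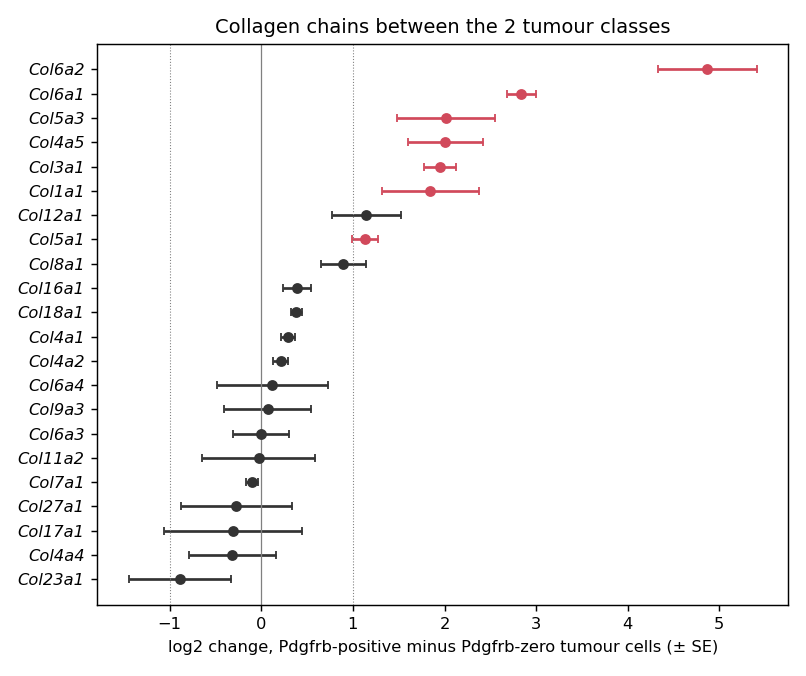
Log2 change of 22 tested collagen chains between Pdgfrb-positive and Pdgfrb-zero tumour cells (points, with the SE as bars; edgeR). Red chains passed an adjusted p under 0.05 and a 2-fold change, dotted lines mark 2-fold, and Col15a1 is not drawn because it had 0 UMIs in Pdgfrb-zero cells. Col6a2 and Col6a1 lie farthest to the right, and Col7a1 lies at -0.10.

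A cell with more UMIs is more likely to show a Pdgfrb UMI, and the Pdgfrb-positive cells were deeper in both libraries. With every tumour cell thinned to 10000 UMIs before the split, Col6a1, Col6a2, Col3a1 and Col5a1 kept their calls. Under the same thinning Col4a5 had an adjusted p of 0.115, and Col1a1 and Col5a3 fell under the filter on low counts. DESeq2's Wald test called Col6a1, Col3a1 and Col5a1 of the 7, gave Col6a2, Col5a3 and Col4a5 adjusted p of 1, 1 and 0.285, and gave Col1a1 no adjusted p. Col6a1, Col3a1 and Col5a1 were called in all alternatives that gave a test.

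Markers of other cells that carry Pdgfrb were read in the same sums. Of 12 mural markers, 5 were at 0 in Pdgfrb-positive tumour cells of both libraries (Rgs5, Abcc9, Vtn, Des and Myh11). The summed level of the list was 11.3 and 14.1 CPM in Pdgfrb-positive cells and 8.70 and 9.36 CPM in Pdgfrb-zero cells, most of it Mcam and Acta2. Of 10 fibroblast markers, Dpt and Mfap5 were at 0, Dcn and Lum were at or under 0.157 CPM, and the list summed to 108 and 111 CPM against 92.7 and 95.4 CPM, most of it the transcription factor gene Twist1. Of 3 tendon markers, 1 was at 0 in each tumour class. The list summed to 60.7 and 59.7 CPM against 31.1 and 29.4 CPM, most of it Scx. Scx stood at 58.4 and 57.1 CPM in Pdgfrb-positive cells against 28.7 and 27.0 CPM. Its log2 change was 0.98 ± 0.08 (adjusted p = 1.453e-14, edgeR), just under the 2-fold threshold of the fit. The median log2 change of the 2 tested tendon markers was 0.47, so the other tested marker changed less than Scx. Of 8 endothelial markers the sums were 27.4 and 29.5 CPM against 29.7 and 27.4 CPM. Of 6 immune markers the sums were 2.001 and 5.617 CPM against 2.32 and 6.17 CPM. Of the oligodendrocyte genes, Mbp stood at 0.883 and 3.88 CPM against 1.10 and 1.36 CPM and Mog at 0.0589 and 0.735 CPM against 0 and 0.0379 CPM, so both were higher in Pdgfrb-positive cells of replicate 2. Mbp was not called, and Mog was too low to test. The part of Twist1, Scx and the oligodendrocyte genes in the collagen differences was not tested.

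The levels were also read along the number of Pdgfrb UMIs in a cell, as a description. Col6a1 stood at 2.77 CPM in cells of replicate 1 without Pdgfrb, at 5.39 with 1 UMI, 15.9 with 2, 26.2 with 3 to 4 and 112 CPM with 5 or more (41 cells). In replicate 2 the same steps were 2.58, 6.88, 14.3, 20.6 and 71.2 CPM (41 cells in the last). Each step was above the one before in both libraries. Col3a1 reached 45.2 and 47.0 CPM and Col5a1 34.3 and 26.6 CPM in the last step, and Col18a1 reached 197 and 209 CPM. Col6a3 had no such steps at low counts of Pdgfrb, at 0.490 and 1.20 CPM with 1 UMI, but stood at 9.26 and 7.05 CPM with 5 or more. Col7a1 stayed between 73.3 and 93.6 CPM over all steps of both libraries. The median depth in the last step, 30747 and 42047 UMIs, was below that of cells without Pdgfrb.

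**Figure D3:**
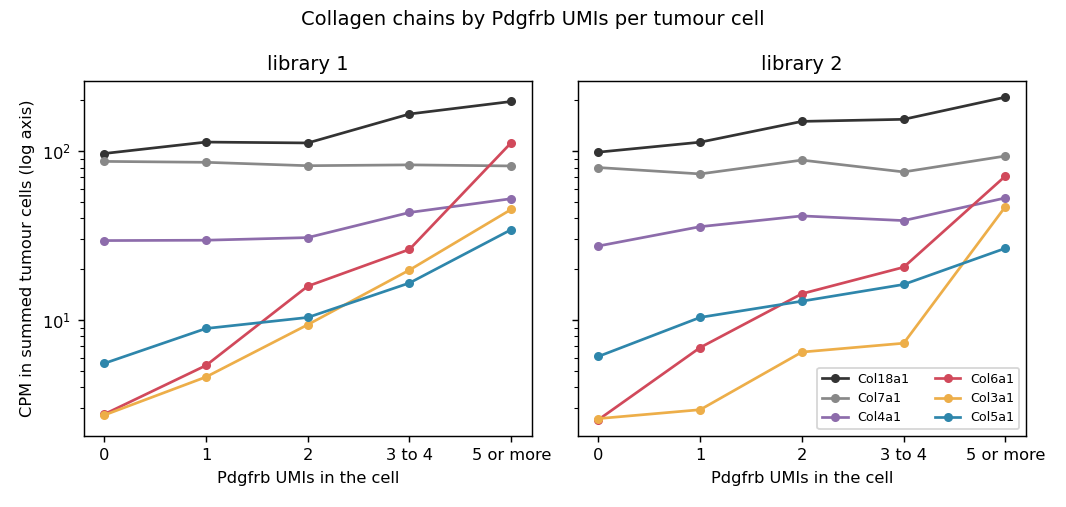
Levels of 6 collagen chains (CPM, log axis) in tumour cells grouped by their number of Pdgfrb UMIs, with 1 panel for each library. Points are sums over the cells of a group and lines join them; Col6a1 goes from 2.77 to 112 CPM in library 1 and from 2.58 to 71.2 CPM in library 2, while Col7a1 stays between 73.3 and 93.6 CPM.

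The share of tumour cells with a UMI of a chain was read in thinned cells, and since that share falls with a chain's level, it does not by itself show how widely a chain is made. In cells thinned to 10000 UMIs, Col18a1 had a UMI in 55.9% of tumour cells of replicate 1 (95% exact binomial interval 52.7 to 59.1%, 964 cells, 33 shallower cells left out) and in 55.4% of replicate 2 (51.9 to 58.8%, 809 cells, 32 left out). Without thinning the shares were 88.3% and 89.1%. Col7a1 had a UMI in 56.2% and 52.2% of thinned cells, Col4a1 in 27.0% and 25.7%, and Col4a2 in 23.9% and 25.8%. The background, read in thinned macrophage/microglia, was 1.05% and 0% for Col18a1 and 2.11% and 0% for Col7a1, where 0 of 103 cells allows up to 3.52% by the same interval. Col3a1 had a UMI in 4.36% and 3.09% of thinned tumour cells, and Col6a1 in 6.74% and 6.18%.

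Chains with like UMI totals were spread differently. The 5% of tumour cells richest in Col16a1 held 37.9% and 34.9% of its 343 and 335 UMIs. For Col6a1, with 445 and 437 UMIs, the same share of cells held 74.2% and 68.4%, and for Col3a1, with 281 and 266 UMIs, it held 93.2% and 89.1%. Col16a1 was found in 260 and 238 tumour cells and Col3a1 in 69 and 71. Intervals and shares cover counting error only.

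**Figure D4:**
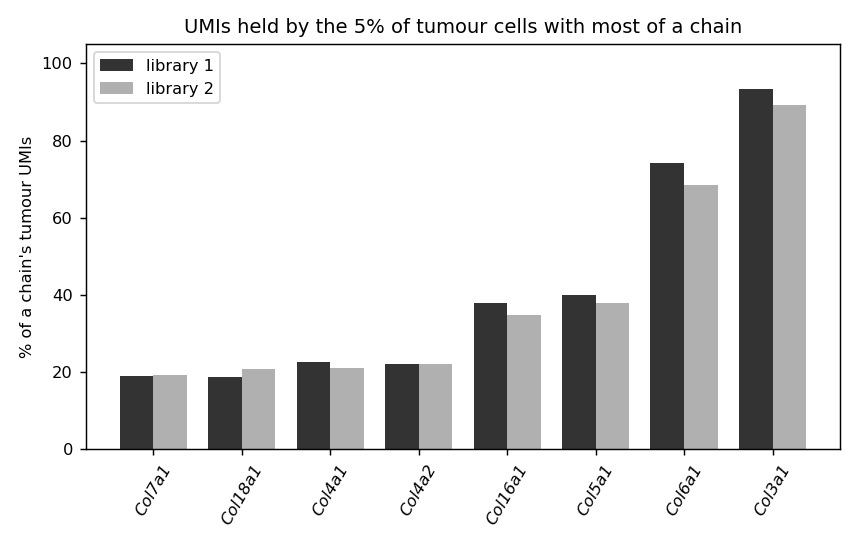
Share (%) of a chain's tumour-cell UMIs held by the 5% of tumour cells with most of that chain, for chains with at least 200 UMIs in each library. Bars are single libraries; the bars run from 18.7% for Col18a1 in library 1 to 93.2% for Col3a1 in library 1.

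Correlations within tumour cells thinned to 10000 UMIs used the logarithm of 1 plus the count. Pearson's r between Col6a1 and Col6a2 was 0.479 over 964 cells of replicate 1 and 0.378 over 809 cells of replicate 2. Only 13 and 7 of these cells held a UMI of both chains. Between Col3a1 and Col6a1 r was 0.407 and 0.396, and between Pdgfrb and Col6a1 0.404 and 0.363. Between the most abundant pair, Col18a1 and Col7a1, it was 0.12 and 0.0809, and between Col4a1 and Col4a2 0.0494 and 0.16. The cells of a library share their droplets and depth, and with counts this sparse the values are descriptions.

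Which chains belonged to tumour rather than immune cells was asked by setting Pdgfrb-zero tumour cells against the mean of the 4 immune classes. The 10 chains that were higher were Col18a1, Col7a1, Col4a1, Col4a2, Col16a1, Col5a1, Col3a1, Col6a1, Col8a1 and Col12a1, and 0 of the 23 tested were lower (edgeR quasi-likelihood test). Over all genes 27.1% were higher and 11.4% lower, a split that became 3087 higher and 2466 lower of 13667 with DESeq2's Wald test, and the median log2 change of all genes was 0.64. At an unadjusted p under 0.05 none was lower, and DESeq2 called 8 chains higher and 2 lower, Col15a1 and Col27a1. The filter on low counts summed UMIs over all classes here too. Of the 10 higher chains, all but Col18a1 and Col7a1 passed it only through tumour cells, so the filter favoured their calls. Col12a1 had 0 immune UMIs and Col6a1 had 1, and the count of calls is a description beside the shares over all genes. Fitted folds against classes with 0 UMIs depend on the fit's prior count, so ratios of pooled counts are given. Col18a1 was 19.7-fold higher than in the pooled immune cells (counting interval 13.9 to 28.8), Col4a1 12.3-fold (7.43 to 22.02), Col4a2 10.1-fold (6.38 to 17.1) and Col7a1 9.47-fold (7.30 to 12.5). Col3a1 does not follow in every class: it had 6 UMIs in monocytes, a pooled level of 8.89 CPM that lay above the 2.68 CPM of Pdgfrb-zero tumour cells.

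Most of the basophil collagen lay in a few cells. Basophils held 139.8 ± 7.16 CPM of collagen, but 57 of their 58 collagen UMIs in replicate 1 lay in the 4 cells with Nras at or above 500 CPM, and 54 of 63 in replicate 2 lay in 6 such cells. Without immune cells of that Nras level basophils stood at 18.6 CPM, a mean that rests on 1 collagen UMI in replicate 1 and 9 in replicate 2. The ratio of tumour to pooled immune cells then became 199 for Col18a1 (interval 68.2 to 967), 34.2 for Col7a1 (20.7 to 61.2), 34.6 for Col4a2 (14.8 to 107) and, with 1 immune UMI left, 38.7 for Col16a1 (6.91 to 1534). For Col4a1 too only 1 immune UMI was left, and the ratio of 175 had an interval of 31.4 to 6925. Col12a1 had no immune UMI, was at least 1.98-fold higher in tumour cells and lost its call in that alternative. T cells held 1 collagen UMI in both libraries together.

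Macrophage/microglia had a different set of chains, which was set against Pdgfrb-zero tumour cells in a comparison added after the data were seen. Here 3 chains were higher and 11 were lower of 23 tested, against 22.4% higher and 27.1% lower of all genes (edgeR), whose median log2 change was -0.25. Col27a1, a fibrillar chain known from cartilage, stood at 21.03 and 18.07 CPM in macrophage/microglia against 0.387 and 0.379 CPM in Pdgfrb-zero tumour cells. It was 51.0-fold higher by pooled counts (interval 31.7 to 85.4), and it made up 47.9% ± 3.83 of the collagen UMIs of macrophage/microglia. Col15a1, the second multiplexin, stood at 5.37 and 6.02 CPM against 0 UMIs in Pdgfrb-zero cells, at least 109-fold higher with a floor of 3 counts over both libraries. Col15a1 passed the filter on low counts only through its 12 and 14 UMIs in macrophage/microglia, so its call was favoured by the filter. Col6a3 stood at 9.84 and 5.16 CPM, 4.04-fold higher (interval 2.66 to 5.99).

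At the level of Col27a1 most cells are expected to show no UMI at this depth, so shares of cells do not tell whether all or some macrophage/microglia make it. Col27a1 had a UMI in 16.8% of macrophage/microglia thinned to 10000 UMIs in replicate 1 (interval 9.94 to 25.9%, 95 cells) and in 10.7% in replicate 2 (5.45 to 18.3%, 103 cells), against 0.104% and 0.494% of thinned tumour cells. Unthinned, the shares were 16.0% and 14.7%. Col14a1 and Col25a1, at 1.34 and 1.29 CPM and at 1.34 and 1.72 CPM, reached 1 CPM in both libraries of macrophage/microglia and were not tested, since they had too few counts. The 11 chains that were lower were Col18a1, Col7a1, Col4a1, Col4a2, Col4a4, Col16a1, Col5a1, Col3a1, Col6a1, Col8a1 and Col12a1. None of them held more than the 8 UMIs of Col7a1 in macrophage/microglia over both libraries. They passed the filter on low counts through other classes, so the filter favoured these calls. Col4a1 and Col4a2 had 0 UMIs in macrophage/microglia and were at least 43.5-fold and 42.9-fold lower, and Col6a1 and Col3a1 also had 0 UMIs and were each at least 4.08-fold lower.

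Genes that act on collagen were read from lists. Of 18 tested genes for folding and hydroxylation in the endoplasmic reticulum, 0 were called between the tumour classes, 8 were higher in Pdgfrb-zero tumour than immune cells and 2 were lower (Plod1 and Creb3l1), where 27.1% of all genes were higher and 11.4% lower. The list's median log2 change between the tumour classes was 0.04, against 0.00 over all genes. Serpinh1, the collagen chaperone HSP47, stood at 33.8 and 39.8 CPM in Pdgfrb-zero and at 38.6 and 38.3 CPM in Pdgfrb-positive tumour cells, against 0.895 and 0 CPM in macrophage/microglia. The lysyl hydroxylase gene Plod2 stood at 56.1 and 61.6 CPM in Pdgfrb-zero tumour cells and had 0 UMIs in macrophage/microglia. Its relative Plod1 had the opposite order, at 4.64 and 5.30 CPM in Pdgfrb-zero tumour cells and at 106 and 113 CPM in macrophage/microglia (log2 change 4.52 ± 0.13, adjusted p = 3.248e-37, edgeR).

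Among 8 tested genes of propeptide cleavage and cross-linking, 1 was higher in Pdgfrb-positive tumour cells (0.907% of all genes were), the lysyl oxidase gene Loxl3, at 6.65 and 6.77 CPM against 3.32 and 2.16 CPM (log2 change 1.22 ± 0.20, adjusted p = 9.737e-06, edgeR). In tumour against immune cells 6 of the 8 were higher, against 27.1% of all genes. Loxl3 was not among the 6. It was higher in macrophage/microglia than in Pdgfrb-zero tumour cells (log2 change 2.11 ± 0.31, adjusted p = 4.045e-08, edgeR). Lox itself, the enzyme named first in that family, was at or under 0.303 CPM in both tumour classes.

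Of 16 tested matrix partners, 4 were higher in Pdgfrb-positive tumour cells and 0 lower, against 0.907% and 0.351% of all genes, with a list median of 0.44 in log2. Fbn1, the fibrillin of microfibrils, stood at 23.1 and 26.9 CPM against 7.64 and 9.09 CPM (log2 change 1.503 ± 0.104, adjusted p = 5.169e-17). Lama4, a laminin chain of vessel basement membranes, stood at 2.35 and 2.31 CPM against 0.226 and 0.341 CPM. Thbs2 and Thbs1, thrombospondins, had log2 changes of 1.45 ± 0.14 and 1.25 ± 0.28. Between tumour cells and the mean of the 4 immune classes 11 of the 16 were higher and 0 lower, against 27.1% and 11.4% of all genes. That mean does not show each class. In macrophage/microglia against Pdgfrb-zero tumour cells 3 of the 16 were higher and 9 lower, against 22.4% and 27.1% of all genes. The 3 were Tgfbi, Thbs1 and Sparc, with log2 changes of 4.41 ± 0.14, 3.70 ± 0.32 and 2.54 ± 0.15. Sparc was also among the 11 above. Of 8 tested receptor and uptake genes, 1 was higher in Pdgfrb-positive tumour cells, against 0.907% of all genes: the integrin chain Itga1 (6.00 and 9.76 CPM against 3.06 and 4.05 CPM; log2 change 1.06 ± 0.19, adjusted p = 4.068e-05). Lair1, an inhibitory collagen receptor of immune cells, stood at 483 and 459 CPM in macrophage/microglia and at 0.0645 and 0.152 CPM in Pdgfrb-zero tumour cells.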

How the data were processed

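Single-cell RNA was counted in 2 droplet libraries of 1 group. Per the labels' protocols, the authors used Cell Ranger 3.1, which aligned reads with STAR to mm10, and deposited UMI counts per gene and barcode; the file headers give software version 3.0.0, and the annotation is not given in the sources used here. Counts were used as deposited. Replicate 1 held 2704 barcodes with 63001350 UMIs and replicate 2 held 2266 with 58915133; 1740 and 1446 cells were kept. Doublets called by scrublet (scanpy 1.11.5, expected rate 0.04; 11 and 3 cells) stayed in and were left out as an alternative.

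Raw counts were summed by library and class (12 sums of 6 classes) and fitted together with edgeR 4.0.16 in R 4.3.3 (quasi-likelihood, TMM factors, library as block, 5 residual degrees of freedom). Classes of a comparison come from the same droplet libraries, which is where the pairing comes from. Genes needed at least 10 counts in each library summed over classes. p-values were Benjamini-Hochberg adjusted over all genes tested, and genes were called at 0.05 and a log2 change of at least 1. Ratios of pooled counts carry exact conditional binomial intervals at 95%. Ratios of CPM and of pooled counts use no TMM factors, so they can differ from the fitted log2 changes. DESeq2 1.42.0, other filters, gates, thinning and left-out cells were alternatives. The scripts were tested on simulated data in which all genes had the same fixed dispersion, which was not estimated from these data. Between the tumour classes the fit recovered 65.3% of simulated 2-fold and 86.6% of 4-fold changes at an adjusted p under 0.05. For macrophage/microglia against Pdgfrb-zero tumour cells it recovered 32.3% and 71.4%. These rates use the adjusted p alone, without the 2-fold threshold of the calls, so they are not the rates at which such changes would be called. A chain that was not called may therefore still differ.

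Printed chains were those with at least 1 CPM in both libraries of a class or called in a comparison, and a few others chosen after their values were seen (Col1a2, Col4a3, Col4a6). From each list at most 6 called genes with the largest change could be named. Lox, Sparc, Tgfbi and the markers fall outside that rule and were named after their values were seen. Members, lists and tests were chosen with earlier results of these data known. No protein sequences were analysed here. 1 marker of the oligodendrocyte list, and sums over that list, are not reported here.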

Additional observations from a re-analysis of the deposited data

Results flagged for a closer look

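Kept cells that met no class rule (264 in replicate 1 and 174 in replicate 2) were outside every comparison and held collagen signals above the limit that a count of 0 allows. Among chains with more than 10 UMIs in those cells and at least 1 in Pdgfrb-zero tumour cells, 6 stood at least 10-fold above Pdgfrb-zero tumour cells over both libraries. The fibrillar chains were Col3a1 at 30.4 CPM (31.0 in replicate 1 and 29.5 in replicate 2), Col1a2 at 19.9 CPM (10.8 and 34.5), Col1a1 at 14.1 CPM (3.82 and 30.6) and Col5a2 at 3.04 CPM (1.35 and 5.75). The others were Col6a2 at 9.96 CPM (6.74 and 15.1) and the transmembrane chain Col13a1 at 1.52 CPM (0.449 and 3.24). All but Col3a1 differed between the libraries by more than 1.5 times and were higher in replicate 2. With 10 or fewer UMIs, Col11a1 (8 UMIs, a ratio of 31.8 with an interval of 6.34 to 307), Col8a2 (8 UMIs, at least 21.2-fold) and Col14a1 (5 UMIs, at least 13.2-fold) were also past 10-fold.

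The barcodes found in both libraries held part of the type I chains of these cells. In replicate 1 they held 13 of 17 Col1a1 UMIs and 40 of 48 Col1a2 UMIs, and in replicate 2 they held 29 of 85 and 40 of 96. Over all 9 such barcodes Col1a2 stood at 4401 and 4414 CPM and Col1a1 at 1430 and 3237 CPM in replicates 1 and 2, with 330 and 294 CPM of Nras and 990 and 981 CPM of the smooth muscle actin gene Acta2. Without them, in cells of no class, Col1a1 was 0.900 CPM in replicate 1 and 20.2 CPM in replicate 2, Col1a2 was 1.80 and 20.2 CPM, and Col3a1 stayed at 27.2 and 23.4 CPM.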

How the results depend on the processing

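No chain called in a comparison reversed its direction in any alternative run. Between the tumour classes 172 genes were called; the count was 47 with DESeq2's Wald test, 89 with filterByExpr and 391 when Pdgfrb-positive cells had at least 3 UMIs. Of collagen chains 7 were called, against 3 with DESeq2, 3 with filterByExpr (which left the other 4 untested) and 4 with tumour cells from 2000 CPM of Nras. In macrophage/microglia 14 chains were called, against 9 with filterByExpr, which tested 9. With no replicate block the tumour comparison called 154 genes and the same 7 chains, the tumour against immune comparison 5349 genes and 11 chains (5265 and 10 with the block), and the macrophage/microglia comparison 6821 genes and 14 chains (6762 and 14). Leaving out 1 library leaves no residual degrees of freedom, so those values have no test. They are log2 ratios of CPM within 1 library, without TMM factors, and are not the same measure as the fitted changes. The ratio of Col6a1 ran from 2.91 to 2.93 in log2, of Col3a1 from 1.98 to 2.07, of Col1a1 from 1.40 to 2.68 and of Col5a3 from 0.74 to 3.47. Basophil collagen moved to 18.6 CPM with Nras from 500 CPM, since basophils of that level then met 2 class rules and were left out. The cause of the other changes was not tested. Intervals and limits cover counting error only, since UMIs of 2 libraries say nothing of spread between animals. Alternatives that left out immune cells of high Nras, tumour cells under 5000 UMIs or shared barcodes, and the macrophage/microglia comparison, were chosen after seeing the data.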

Other observations

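Kept cells with a Pdgfrb UMI that met no class rule numbered 40 in replicate 1 and 24 in replicate 2. They were deep (medians of 37999.5 and 49631.5 UMIs), with Nras at 772 and 743 CPM, under the tumour threshold, and Sox2 at 21.5 and 15.2 CPM. Col18a1 stood at 147 and 143 CPM and Col7a1 at 90.1 and 60.6 CPM. Col6a1 stood at 56.1 and 20.5 CPM and Col6a2 at 13.7 and 19.6 CPM. Replicate 1 had Col3a1 at 62.0 CPM with Col1a1 and Col1a2 each at 1.19 CPM, whereas replicate 2 had Col3a1 at 18.7 CPM, Col1a1 at 30.3 CPM and Col1a2 at 28.5 CPM. Among the fibroblast markers, Dcn had 0 UMIs in these cells of replicate 1 and stood at 67.8 CPM in replicate 2. Fbln1 stood at 7.16 and 44.6 CPM, and Mfap5 at 0 and 9.81 CPM. Others did not follow: Lum, Dpt, Clec3b and Thy1 had 0 UMIs in both libraries. Pi16 stood at 0.596 and 0 CPM, Pdgfra at 2.98 and 1.78 CPM, and Twist1 at 81.12 and 98.97 CPM. The oligodendrocyte genes Mbp and Mog stood at 51.3 and 11.3 CPM in replicate 1 and had 0 UMIs in replicate 2. These are values of cells of no class, with no comparison made between the libraries.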
